A study of Rattus norvegicus with 4 samples.

Results

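The genes described here are the 200 with the highest array signal in surface colonocytes of the distal colon of vehicle-treated rats. They were chosen by averaging both vehicle arrays over every row that carries 1 gene symbol, keeping the highest row of each gene, and taking the first 200 of 13215 genes. Surface colonocytes are the absorptive epithelial cells that line the gut lumen. All rats were Wistar rats of 12 weeks whose adrenal glands had both been removed 4 days earlier, and all drank 0.9% NaCl, so that the controls lacked adrenal aldosterone and glucocorticoid as well. In the vehicle group, 2 rats received vehicle by injection and PEG300 by minipump. In the aldosterone group, 2 rats received 50 µg aldosterone per 100 g body weight by subcutaneous injection and a pump set to 10 µg per kg and hour. Treatment lasted 2 h, and the cells were then released over 40 min of shaking with 100 nM aldosterone or with vehicle in the solution. RNA of each rat went to 1 Affymetrix exon array after reduction of ribosomal RNA. The question asked of these 200 genes was what they do and how stable their signal was with aldosterone.

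Surface colonocytes are mature, non-dividing cells that absorb sodium, chloride and water, take up short-chain fatty acids, and hold a mucus-covered barrier against bacteria. A cell of this kind devotes much of its messenger RNA to apical transporters, junction and adhesion proteins, the actin core of microvilli, and keratins. Immediate early genes answer growth factors and stress within minutes, and their transcripts decay quickly. Aldosterone acts through the mineralocorticoid receptor, a transcription factor, and its early targets include the kinase gene Sgk1.

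Signals are log2 values, and a difference of 1 is a doubling. The rule ranks rows that have different probes, so a high rank means a bright row, and brightness depends on the probes as well as on the number of transcripts. The label of most abundant transcripts went against the data most clearly for 1 class. Messenger RNAs of cytosolic ribosomal proteins are known to be among the most abundant of any cell, but only 22 of 79 written genes had a row of their own. Of these 22, 14 lay below a vehicle signal of 3, in the range that held 65.0% of all row means, and 2 were among the 200 (Rplp0 and Rpl18). Other lists used below also held genes under 3, such as Prdx1 (1.81), Hspe1 (2.33) and Eno1 (2.99). A low count of members on a list therefore says little about the number of transcripts. Of the 200 brightest rows of any kind, 156 had 1 symbol, 2 had several and 42 had none. Among the unnamed were the 3 rows above the brightest named gene, the highest with a vehicle mean of 13.53. The genes are therefore called bright rather than abundant below.

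The 200 genes ran from a vehicle mean of 12.83 (Txnip) to 9.74 (Bhlhe40). Just inside the limit stood Lamp1, Tesk2, Ywhab, Abcc3 and Bhlhe40, with vehicle means from 9.75 to 9.74. Just outside stood Anxa1, Pdlim1, Tmed2, Stard10 and Eps8l3, from 9.71 to 9.66. For comparison, the array medians over all rows were 2.22 and 2.43 for vehicle and 2.33 and 2.44 for aldosterone. On the linear scale the 200 genes held 40.3% and 41.1% of the summed signal of all named genes in the vehicle arrays. Their share was 40.9% and 41.1% in the aldosterone arrays, which did not choose them.

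Markers of the labelled cell type were set beside those of other cells, as a description, since the vehicle values chose the members and probes differ in brightness. Of 9 measured epithelial markers 8 were among the 200, and of 10 measured surface colonocyte markers 7 were. The other epithelial marker, Krt18, a keratin of simple epithelia, read 3.598 and 3.32 in vehicle rats and 3.68 and 4.28 in aldosterone rats. Surface markers among them were Lypd8, Slc26a3, Guca2a, Car4, Krt20, Cdhr5 and Guca2b, and the other measured ones, Aqp8, Ms4a12 and Car2, lay outside, at ranks 218, 370 and 379. The log2 of the summed signal of the surface list was 14.27 and 14.54 in vehicle rats and 14.61 and 14.62 in aldosterone rats. Cd14, a receptor for bacterial lipopolysaccharide written on the macrophage list, was a member at 10.86 and 11.17 in vehicle rats and 11.13 and 11.33 in aldosterone rats. The other 5 measured macrophage markers did not exceed 4.19 on any array, and Csf1r, which defines macrophages, lay between 2.05 and 2.27. Crypt base and cycling markers had no member, and 6 of their 7 measured genes had a vehicle mean below 3. Lists for T cells, B and plasma cells, mast cells, enteroendocrine cells, tuft cells, fibroblasts, smooth muscle, endothelium, nerve, and pancreas with small intestine also had no member. The brightest gene of those lists was Sdc1 (8.10), which epithelial cells also express, and 0 of 4 erythrocyte markers had a row of their own.

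The brightest 25 genes mixed barrier, transport and stress functions. Txnip, a binder of thioredoxin that limits glucose uptake, read 12.92 and 12.74 in vehicle rats and 12.85 and 12.81 in aldosterone rats. Tspan1, a membrane protein of the tetraspanin family, read 12.67 and 12.55 against 12.73 and 12.48. B2m, the light chain of MHC class I, read 12.48 and 12.26 against 12.28 and 12.46. For these 3 genes the arrays of both groups overlapped. Lypd8, a secreted protein that binds flagellated bacteria, read 12.30 and 12.20 against 12.29 and 12.23. Spint2, an inhibitor of membrane serine proteases, read 12.14 and 12.16 against 12.09 and 12.25. Prr13 read 11.54 and 11.59 against 11.57 and 11.57. Muc13, a membrane mucin, read 11.97 and 11.58 against 11.87 and 11.55. The 95% interval of the log2 difference was -0.32 to 0.31 for Txnip, -0.28 to 0.30 for Lypd8 and -0.26 to 0.27 for Prr13.

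**Figure D1:**
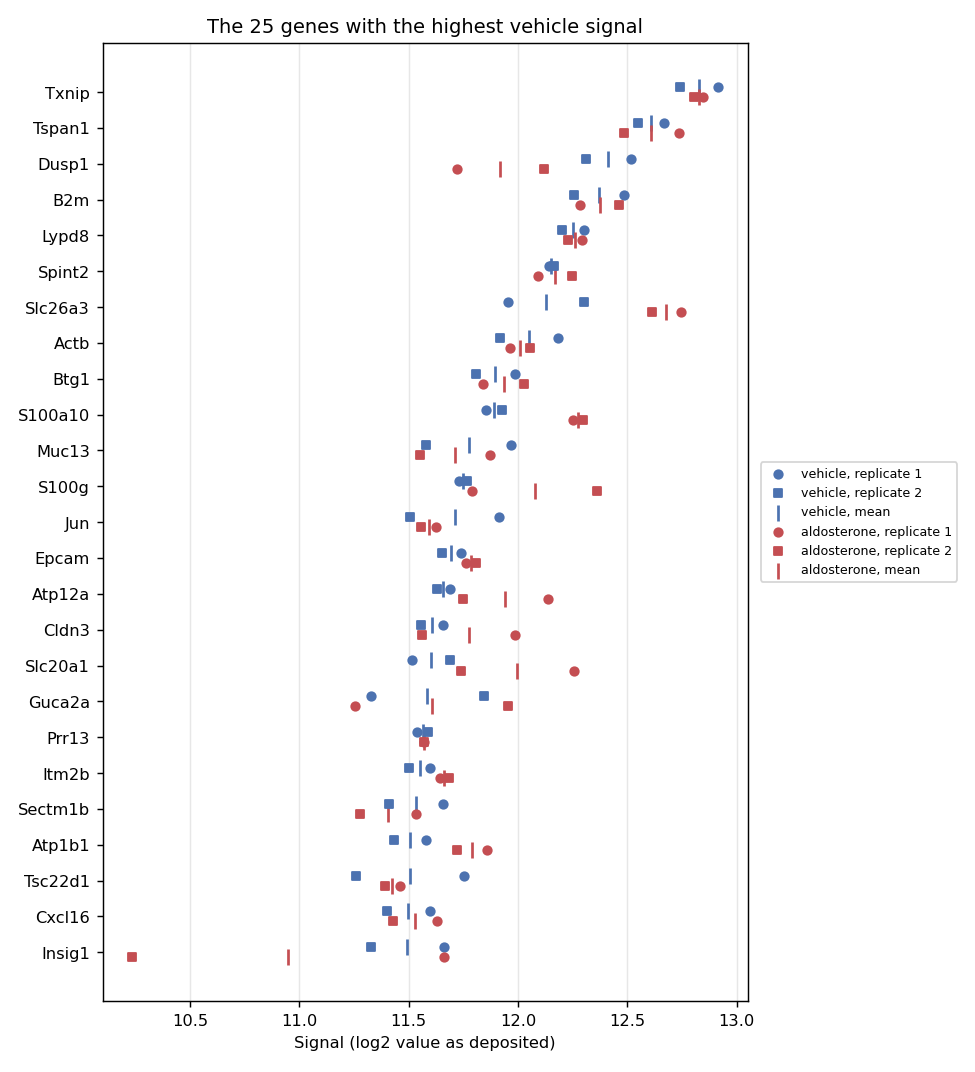
Signal on each array, as the deposited log2 value, of the 25 genes with the highest vehicle mean, with circles for replicate 1, squares for replicate 2 and bars for the mean of each group. Txnip, Tspan1, B2m and Lypd8 overlap between vehicle and aldosterone, Slc26a3 and S100a10 lie higher with aldosterone, Dusp1 lies lower, and Insig1 is low on 1 aldosterone array.

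Other genes of the first 25 stood apart from this pattern. Slc26a3, the chloride-bicarbonate exchanger of the apical membrane, read 11.96 and 12.30 in vehicle rats and 12.75 and 12.61 in aldosterone rats, 1.47-fold higher. S100a10, a partner of annexin A2, read 11.85 and 11.93 against 12.25 and 12.30. Dusp1, a phosphatase that shuts off MAP kinases, read 12.52 and 12.31 against 11.72 and 12.12. In each of these 3 genes the groups did not overlap. Slc20a1, a sodium-phosphate cotransporter, read 11.51 and 11.69 against 12.26 and 11.74. S100g, the calcium carrier calbindin-D9k, read 11.73 and 11.77 against 11.79 and 12.36. In both, 1 aldosterone array lay close to the vehicle arrays and the other well above. Itm2b, a membrane protein of the BRICHOS family, read 11.60 and 11.50 against 11.64 and 11.68, higher by a narrow gap. Sectm1b read 11.65 and 11.41 against 11.53 and 11.28, and Cxcl16, a membrane-bound chemokine, 11.60 and 11.40 against 11.63 and 11.43, both with overlap.

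Most of the 200 genes kept their place when the aldosterone arrays were ranked in the same way. The 200 brightest genes by the aldosterone mean included 178 of them (89.0%), and all 200 lay within the first 400. Of the first 10 genes 8 were shared, of the first 25 21, and of the first 100 87. Single arrays gave the scale for these numbers. The 200 brightest genes of the vehicle arrays shared 182 between those arrays, those of the aldosterone arrays shared 170, and the 4 pairs across treatments shared from 172 to 176.

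The typical difference across treatments lay in the same range as that between rats of a group. Over the 200 genes the median absolute log2 difference was 0.199 between the vehicle arrays and 0.210 between the aldosterone arrays. Across treatments it was 0.210, 0.242, 0.196 and 0.171. Large differences were more frequent across treatments, with 10 genes past 1.5-fold between the vehicle arrays and 15 between the aldosterone arrays, but 20 to 30 in the pairs across. Past 2-fold lay 2 and 4 genes within the groups and 5 to 8 across. The vehicle arrays chose the genes, which can widen the pairs across, so these counts are partly set by the choice. The next 200 genes in order of vehicle signal had larger median differences in all 6 pairs, from 0.219 to 0.289.

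**Figure D2:**
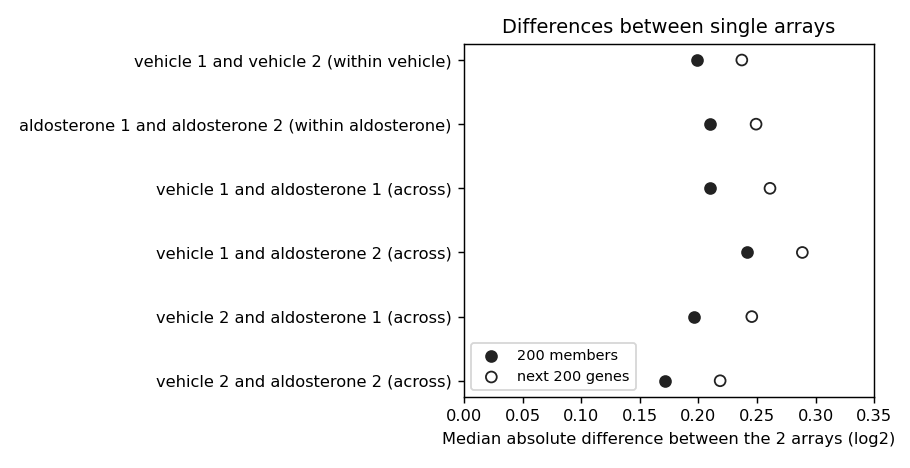
Median absolute log2 difference between the arrays of each of the 6 pairs, for the 200 members (filled) and the next 200 genes (open). For the members the pairs within a group lie at 0.199 and 0.210, inside the range of the pairs across treatments, 0.171 to 0.242.

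In the means of the groups, 188 of the 200 genes differed by less than 1.5-fold, a share of 94.0% where all 19403 rows had 95.9%, many of them near the floor of the arrays, and the next 200 genes had 86.5%. Higher by 1.5-fold or more with aldosterone were 3 genes (1.81% of all rows), and lower were 9 (2.26% of all rows). Without overlap of the groups these were 3 (1.45% of all rows) and 8 (1.84% of all rows). The median difference was -0.02 over the 200, against 0.02 over all rows and -0.04 over the next 200. The vehicle arrays chose the genes and also enter the difference, so these splits are partly set by the choice. When the aldosterone arrays chose the 200, 10 were higher and 3 lower, and when all 4 arrays chose them, 6 were higher and 7 lower. The counts also moved with single arrays. They became 5 higher and 16 lower without aldosterone replicate 1, and 5 and 14 without aldosterone replicate 2. They became 6 and 11 without vehicle replicate 1, and 5 and 18 without vehicle replicate 2.

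Both arrays of a group lay beyond both of the other in 40 genes higher (16.7% of all rows) and 46 lower (11.1% of all rows). Among the next 200 genes 29 were higher and 47 lower in this way. With each array centred on its median the counts of the 200 members became 20 and 42, and with quantile normalization 30 and 55. Limma with a constant prior, fitted on all rows with Benjamini-Hochberg adjustment, called 0 of the 200 (0% of all rows) at an adjusted p of 0.05. At an unadjusted p under 0.05 it held 23 of them (4.53% of all rows), as many as among the next 200. With a prior spread that follows the level, limma called 1 of the 200, Sgk1 (0.108% of all rows), with an adjusted p of 0.000558. With a robust prior or with no moderation it called 0. The 95% interval of the difference stayed within 1.5-fold in 96 genes (62.0% of all rows) and within 2-fold in 176 (87.1% of all rows). For the other 24 genes the interval reached beyond 2-fold. Among the next 200 genes it stayed within 1.5-fold in 72 and within 2-fold in 144.

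**Figure D3:**
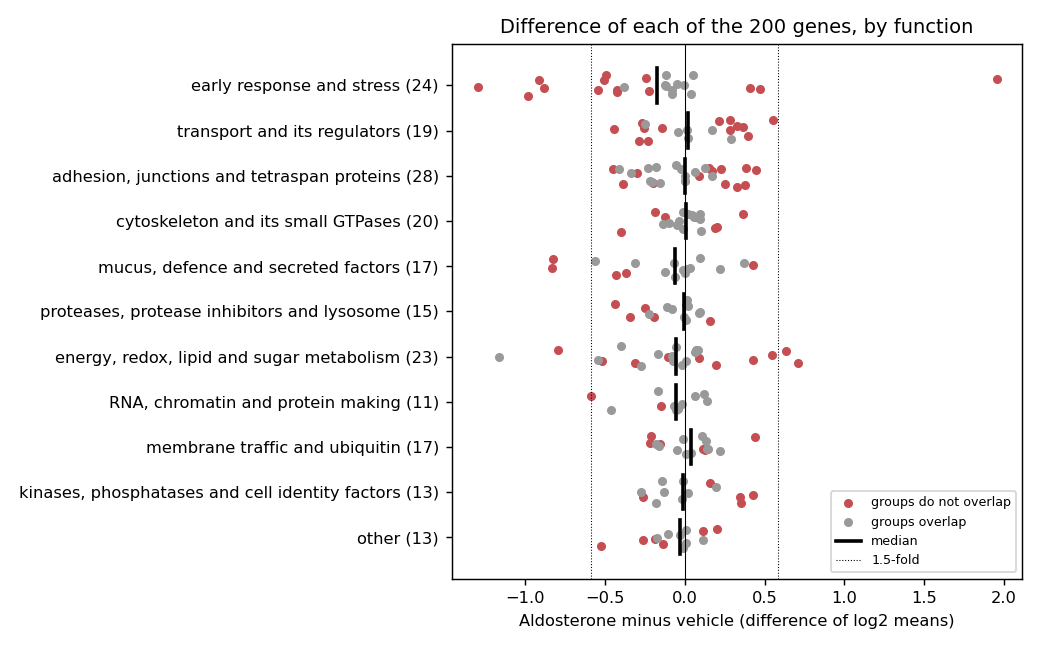
Difference of the log2 group means, aldosterone minus vehicle, for each of the 200 genes by functional group, with the number of genes in brackets, red for genes whose arrays do not overlap between groups, a black bar for the median and dotted lines at 1.5-fold. Medians lie between -0.18 and 0.04, and the early response and stress genes spread most widely, from Atf3 at -1.30 to Sgk1 at 1.95.

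The early response and stress genes numbered 24 and held 5 of the 12 members past 1.5-fold. Many of these are transcription factors, phosphatases and brakes on growth, and others differ, such as the kinase gene Sgk1 and the small GTPase gene Rhob. How quickly their transcripts are made and lost was not measured. Of the 24, 19 lay lower and 5 higher with aldosterone, with a median difference of -0.18. The median was 0.02 over all rows and -0.04 over the next 200 genes, of which 110 lay lower. The vehicle arrays chose the genes and enter the difference, so this split is partly set by the choice. The group was also made after the members were known. Past 1.5-fold lay 4 of the 24 lower and 1 higher (2.26% and 1.81% of all rows). The median of the 24 was -0.23 under centring and under quantile normalization, -0.33 without vehicle replicate 2 and -0.13 without vehicle replicate 1. Without aldosterone replicate 1, 7 of the 24 were lower by 1.5-fold or more, and without aldosterone replicate 2 also 7. These checks of the group were added after the data were seen. The list of immediate early and stress genes was written from general knowledge, with earlier results of these data known. On it 20 of 51 measured genes were among the 200, more than on any other of the 13 lists. Of those 51, 39 lay lower, where 2670 of the 4815 rows with a mean of 4 or more did. Limma with the level-dependent prior called 2 higher and 1 lower (0.108% of all rows in either direction), and with the constant prior 0.

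Several factors of the early response had lower signal in both aldosterone rats, and none of them passed limma with either prior. Atf3, a stress-induced factor, read 10.32 and 10.31 in vehicle rats and 8.89 and 9.15 in aldosterone rats, 2.46-fold lower. Egr1, a zinc finger factor of the first wave, read 11.03 and 10.63 against 10.15 and 9.54. Fosb, an AP-1 subunit, read 10.20 and 10.25 against 9.13 and 9.56. In these 3 genes both aldosterone rats lay well below both vehicle rats. Junb, another AP-1 subunit, read 10.24 and 9.71 against 9.35 and 9.51, and Fos 10.50 and 10.34 against 9.75 and 10.24. Their groups did not overlap either, with a narrower gap. Jun read 11.91 and 11.51 against 11.62 and 11.56, and Atf4, a factor of the integrated stress response, 10.003 and 9.63 against 9.81 and 9.58, both with overlap. Rhob, an unstable small GTPase of endosomes, read 10.77 and 10.61 against 9.92 and 9.63. Klf6, a Krüppel-like factor, read 9.87 and 10.21 against 9.82 and 9.25. Other genes of the group did not follow, as with Btg1, an antiproliferative factor, at 11.98 and 11.81 against 11.84 and 12.03. Tsc22d1, a leucine zipper protein, read 11.75 and 11.26 against 11.46 and 11.39.

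Sgk1, the kinase that keeps the epithelial sodium channel at the cell surface, was the member furthest above its vehicle signal. It read 10.51 and 10.64 in vehicle rats and 12.54 and 12.52 in aldosterone rats, 3.87-fold higher. Its rank went from 99 to 4, so that this known aldosterone target was already among the bright genes of rats without adrenals. Its adjusted p was 0.332 in limma with the constant prior, and over the alternatives from 0.000558 to 1.00. Cdkn1a, the cell cycle inhibitor p21, read 10.67 and 10.50 against 11.27 and 10.83. Ddit4, an inhibitor of mTORC1 known to respond to glucocorticoids, read 11.30 and 10.76 against 11.48 and 11.41. Both lay higher without overlap, and neither passed the threshold in limma.

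**Figure D4:**
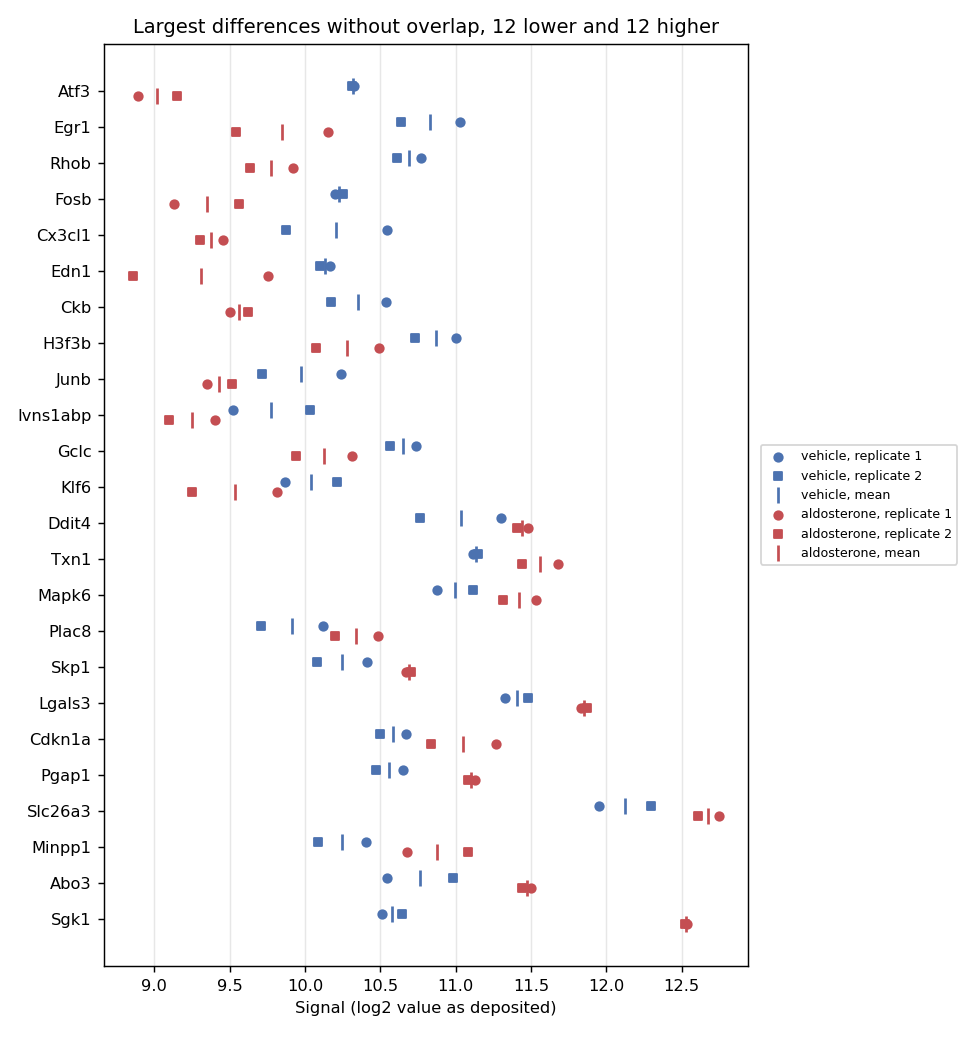
Signal on each array of the 12 genes with the largest lower and the 12 with the largest higher difference among members whose groups do not overlap, as deposited log2 values, with circles for replicate 1, squares for replicate 2 and bars for group means. Atf3, Egr1, Rhob and Fosb have the largest mean differences on the lower side, and Sgk1, at 12.54 and 12.52 with aldosterone against 10.51 and 10.64, on the higher side.

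The DNA before the start sites of 5 genes is shown because these are the members past 1.5-fold without overlap found with the letters TATAAA in that stretch. Atf3, also past 1.5-fold without overlap, had no promoter sequence and was not searched. They are RefSeq sequences on build GRCr8, covering the 150 bases before the annotated start, read 5′ to 3′ along the gene. Capitals mark TATAAA on either strand. Sgk1 (chr1:24807232-24807381, minus strand) has 3 start sites listed, of which the first is shown. The others are H3f3b (chr10:101757637-101757786, minus strand), Ckb (chr6:136553465-136553614, minus strand), Cx3cl1 (chr19:10242821-10242970, minus strand) and Edn1 (chr17:22666688-22666837, minus strand).
Sgk1: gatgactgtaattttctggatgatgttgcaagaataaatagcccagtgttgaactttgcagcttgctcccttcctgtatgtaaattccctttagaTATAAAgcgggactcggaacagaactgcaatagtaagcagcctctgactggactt
H3f3b: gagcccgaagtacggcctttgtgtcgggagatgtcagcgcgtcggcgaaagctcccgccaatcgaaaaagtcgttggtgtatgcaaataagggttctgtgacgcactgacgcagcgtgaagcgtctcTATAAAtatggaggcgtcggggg
Ckb: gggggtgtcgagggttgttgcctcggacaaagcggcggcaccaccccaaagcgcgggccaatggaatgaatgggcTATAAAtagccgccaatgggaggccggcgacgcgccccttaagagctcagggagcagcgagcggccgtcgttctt
Cx3cl1: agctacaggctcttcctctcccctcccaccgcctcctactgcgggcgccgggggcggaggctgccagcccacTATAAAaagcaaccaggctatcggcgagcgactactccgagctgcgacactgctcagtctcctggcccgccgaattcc
Edn1: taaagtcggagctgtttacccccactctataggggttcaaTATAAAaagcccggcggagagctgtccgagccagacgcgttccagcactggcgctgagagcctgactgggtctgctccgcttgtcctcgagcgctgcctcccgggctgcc

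RefSeq gave a promoter window of 300 bases, 250 before the start and 50 after, for 161 of the 200 genes, matched by gene ID or symbol. The other 39, among them Fos, Jun, Atf3 and Actb, had no window and were not searched. TATAAA was searched on both strands at any place in the window. It was found in 32 of the 161 member windows (19.9%) and in 11.3% of the 168 windows of the next 200 genes. It was in 11.5% of the 10844 windows of all measured genes and in 14.3% of all windows. Among the early response and stress genes 7 of 20 windows had it, those of Klf4, Tob1, Errfi1, Sgk1, Fosb, Junb and Atf4. The median GC content of the windows was 63% in the members, 62.7% in the next genes and 58% in measured genes. The GC box GGGCGG, made of G and C alone, was found in 68.3% of the members, 73.2% of the next genes, 49.9% of measured genes and 34.9% of all windows. CCAAT was found in 38.5%, 37.5%, 37.7% and 37.7% in the same order. The serum response element, searched by its name's usual pattern on both strands, lay in 2 members, Egr1 with 2 copies and Klf6 with 1 (1.24%), in 2.98% of the next genes, 1.31% of measured genes and 1.64% of all windows. TGACGTCA, the cyclic AMP response element, lay in 5 members (3.11%), among them Dusp1, in 5.95% of the next genes, 2.44% of measured genes and 1.91% of all windows. TGACTCA, an AP-1 site, lay in 11 (6.83%), against 5.36% of the next genes, 3.97% of measured genes and 4.53% of all windows. CACGTG, an E-box, lay in 16 (9.94%), against 10.1% of the next genes, 8.09% of measured genes and 6.65% of all windows. The palindromic steroid receptor element, searched by its name's usual pattern, was in 0 of 161 windows, 0 of the next genes, 0.323% of measured genes and 0.422% of all windows. A serum response element can hold the letters CCAAT, and matches of different patterns may overlap. A match is a stretch of letters, and no binding was measured.

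Transporters and their regulators numbered 19, and 18 of them stayed among the 200 with aldosterone. Their median difference was 0.02, with 7 higher and 6 lower without overlap (16.7% and 11.1% of all rows) and 0 past 1.5-fold. Genes of sodium, chloride and proton transport were among the higher ones. Atp12a, the colonic proton-potassium pump, read 11.69 and 11.63 in vehicle rats and 12.13 and 11.75 in aldosterone rats. Atp1b1, the beta subunit of the sodium pump, read 11.58 and 11.43 against 11.86 and 11.72. Slc16a1, which carries butyrate and lactate, read 10.86 and 10.86 against 11.09 and 11.06, a small difference with both groups tight. Slc38a2, an amino acid transporter, read 9.99 and 10.19 against 10.58 and 10.33. On the lower side stood Abcc3, an exporter of conjugates, at 9.63 and 9.84 against 9.24 and 9.34. Slc2a1, a glucose transporter, read 10.08 and 10.03 against 9.62 and 9.96, and Cnnm4, a magnesium exporter, 10.34 and 10.17 against 10.05 and 9.89. On the list of ion transport and acid-base genes 10 of 42 measured genes were among the 200. Limma with the level-dependent prior called 3 of the 42 higher, of which Sgk1 is a member, and 0 lower (0.108% of all rows in either direction), and with the constant prior 0. With arrays centred on their medians the difference of Slc16a1, 0.21, became 0.16.

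Guanylin genes differed more within the groups than between treatments. Guca2a, which encodes guanylin, an agonist of the cyclic GMP receptor of the gut, read 11.33 and 11.84 in vehicle rats and 11.25 and 11.95 in aldosterone rats. Guca2b, which encodes uroguanylin, read 9.79 and 10.82 against 9.75 and 10.77. In both genes each group had a low and a high rat about as far apart. The low one was replicate 1 in both groups. A difference between single rats and one that goes with the replicate number cannot be told apart.

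Adhesion, junction and tetraspan proteins formed the largest group, with 28 genes. Their median difference was 0.00, 14 lay higher and 14 lower, and 26 stayed among the 200. Epcam, the epithelial adhesion molecule, read 11.74 and 11.65 in vehicle rats and 11.76 and 11.81 in aldosterone rats. Cdh1, E-cadherin, read 11.34 and 10.97 against 11.14 and 11.13. Cdh17, a cadherin of the intestine, read 11.26 and 11.09 against 11.51 and 11.35. Lgals3, a galectin of the apical surface, read 11.33 and 11.48 against 11.83 and 11.87, and Lgals4, another galectin, 10.84 and 10.68 against 11.05 and 11.22. The cadherin Cdh17 and both galectins lay higher without overlap. Cldn3 and Cldn7, claudins of the tight junction, overlapped between groups, while Cldn4 read 10.97 and 10.67 against 10.57 and 10.17. On the junction list 15 of 34 measured genes were members, the highest share of all 13 lists (44.1%).

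Cytoskeletal genes and their small GTPases numbered 20, with a median difference of 0.01 and 0 past 1.5-fold. Actb, beta-actin, read 12.18 and 11.92 in vehicle rats and 11.96 and 12.06 in aldosterone rats. The keratins of simple epithelia overlapped or nearly so. Krt8 read 11.002 and 10.803 against 10.98 and 10.82, and Krt20, a marker of surface cells, 11.18 and 11.14 against 11.19 and 11.26. Krt19 read 11.63 and 11.34 against 11.31 and 11.28. Arpc1b, a subunit of the Arp2/3 complex that nucleates actin, had the largest difference, at 11.31 and 11.01 against 10.71 and 10.82. Of 43 measured genes on the cytoskeleton list 15 were members.

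Mucus, defence and secreted factors numbered 17 and were less uniform. Cx3cl1, the membrane-bound chemokine fractalkine, read 10.55 and 9.87 in vehicle rats and 9.45 and 9.30 in aldosterone rats. Edn1, which encodes endothelin-1, read 10.16 and 10.10 against 9.75 and 8.86. Bmp2, a growth factor of the villus and surface epithelium, read 10.997 and 11.31 against 10.84 and 10.60. All of them lay lower without overlap, and Cx3cl1 and Edn1 left the 200. Plac8 was the only gene of the group to lie higher without overlap, at 10.12 and 9.71 against 10.49 and 10.20. On the list of mucus and antimicrobial genes 7 of 33 measured genes were members.

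Goblet cell products did not behave alike between treatments. Tff3, the trefoil peptide of goblet cells, read 11.12 and 10.74 in vehicle rats and 9.44 and 11.30 in aldosterone rats. Of 4 measured goblet markers Tff3 was the only member, Agr2 and Zg16 had vehicle means of 7.90 and 4.80, and Spink4 lay at the floor. The log2 of their summed signal was 11.29 and 10.95 in vehicle rats and 9.95 and 11.63 in aldosterone rats, so that the aldosterone array low in Tff3 was low in the sum, which Tff3 makes up for the most part. Zg16, a lectin-like goblet cell protein, read 5.14 and 4.45 in vehicle rats and 6.39 and 8.06 in aldosterone rats, a difference of 2.43 without overlap. Agr2 read 7.89 and 7.91 against 7.69 and 8.52. In Tff3, Agr2 and Zg16 alike, aldosterone replicate 1 lay below aldosterone replicate 2. In whole-cell RNA fewer goblet cells and less RNA per cell cannot be told apart. Retnlb, which encodes a goblet cell protein against bacteria, read 9.49 and 10.82 against 10.23 and 10.81. Retnla, of the same family, read 10.56 and 10.69 against 10.17 and 10.94.

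Proteases, their inhibitors and lysosomal genes numbered 15, with a median difference of -0.01 and 0 past 1.5-fold. Serine proteases of the membrane and their inhibitors were both bright. Spint1, an inhibitor of matriptase, read 11.22 and 11.44 in vehicle rats and 11.53 and 11.45 in aldosterone rats. St14, matriptase itself, read 10.98 and 10.76 against 10.78 and 10.51, and Tmprss2, a related protease, 11.36 and 11.05 against 11.27 and 10.92. Ctsb, lysosomal cathepsin B, read 11.28 and 11.17 against 11.08 and 11.38. Psenen, a subunit of gamma-secretase, read 11.21 and 11.39 against 10.90 and 11.68. Of these genes Spint1 had groups without overlap, by a narrow gap. Lower without overlap were Tgm3, Capn13, Capn5 and Scpep1.

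Metabolic genes numbered 23 and held both higher genes besides Sgk1 that passed 1.5-fold. Abo3, of the ABO glycosyltransferase family, read 10.55 and 10.98 in vehicle rats and 11.50 and 11.44 in aldosterone rats, 1.63-fold higher. Minpp1, a phosphatase of inositol polyphosphates, read 10.40 and 10.09 against 10.68 and 11.08, 1.55-fold higher. Pgap1, which trims the anchor of GPI-linked proteins, read 10.65 and 10.47 against 11.13 and 11.08. In all 3 both aldosterone rats lay above both vehicle rats. Ckb, cytosolic creatine kinase, read 10.54 and 10.17 against 9.50 and 9.62, 1.73-fold lower, while Ckmt1, the mitochondrial form, read 11.27 and 11.26 against 11.42 and 11.29. Gclc, which catalyses the first step of glutathione synthesis, read 10.73 and 10.56 against 10.31 and 9.94. Txn1, thioredoxin, read 11.12 and 11.15 against 11.68 and 11.44. Idh3a, of the tricarboxylic acid cycle, read 10.77 and 10.58 against 10.62 and 10.58, with overlap.

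Some metabolic genes had 1 array far from the others. Retsat, retinol saturase, read 9.59 and 10.57 in vehicle rats and 7.57 and 10.28 in aldosterone rats. Insig1, which holds back cholesterol synthesis, read 11.66 and 11.32 against 11.66 and 10.23. Ugdh, which makes the glucuronic acid donor, read 10.81 and 10.03 against 9.99 and 10.05, and its difference of -0.40 became -0.0088 without vehicle replicate 1. Without aldosterone replicate 1 the difference of Retsat, -1.16, became 0.19, and without aldosterone replicate 2 that of Insig1, -0.55, became 0.17. Retsat accounts for the member past 1.5-fold lower whose groups overlapped. The 95% interval of its difference ran from -3.94 to 1.62, the widest of the 200.

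Lists of energy and fatty acid metabolism held members as follows, where 200 of 13215 genes were members in all. On the list of the respiratory chain and ATP synthase 2 of 53 measured genes were members. They were Atp5f1b, at 10.98 and 10.82 in vehicle rats and 10.82 and 10.96 in aldosterone rats, and Atp5f1d. On the lists of butyrate and fatty acid metabolism 1 of 34 was a member, of glycolysis and the tricarboxylic acid cycle 4 of 30, and of iron, redox and detoxification 1 of 32. Limma called 0 genes of these 4 lists, with the constant and with the level-dependent prior.

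RNA, chromatin and protein-making genes numbered 11. H3f3b, which encodes the replacement histone H3.3, read 11.004 and 10.73 in vehicle rats and 10.49 and 10.07 in aldosterone rats, which placed it at the limit of 1.5-fold lower. Rplp0, a ribosomal stalk protein, read 11.26 and 10.81 against 10.75 and 11.19, and Rpl18 10.39 and 9.56 against 9.07 and 9.96, both with overlap. Eef2, the elongation factor that moves the ribosome, read 10.25 and 9.94 against 9.87 and 9.99. On the list of translation factors 1 of 19 measured genes was a member, and on that of RNA binding and chromatin 3 of 39.

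Membrane traffic and ubiquitin genes (17) and kinases, phosphatases and cell identity factors (13) all stayed among the 200. Skp1, a subunit of SCF ubiquitin ligases, read 10.41 and 10.08 in vehicle rats and 10.67 and 10.70 in aldosterone rats. Ube2d3, a ubiquitin-conjugating enzyme, read 11.04 and 10.97 against 11.05 and 11.04. Mapk6, an atypical MAP kinase, read 10.88 and 11.12 against 11.53 and 11.31. Skp1 and Mapk6 lay higher without overlap. Hnf4a, the nuclear receptor of intestinal identity, read 11.07 and 10.89 against 10.93 and 10.68. Hoxb13 and Hoxd13, Hox genes of the hind end of the body, read 10.30 and 9.99 against 10.42 and 10.57, and 10.99 and 10.74 against 10.39 and 10.79. On the list of protein folding, secretion and proteolysis 9 of 57 measured genes were members. Hnf4a and both Hox genes were named after their values were seen, as were Atf4, Aqp8, Ms4a12, Car2, Fos, Bmp2, Cldn4, Lgals4, Slc38a2, Cnnm4, Spint1, St14, Tmprss2, Tgm3, Capn13, Capn5 and Ckmt1.

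With the aldosterone arrays choosing, 22 genes entered and 22 left. The largest climbs were those of Tsc22d3, a leucine zipper gene induced by corticosteroids, and Fxyd4, a regulator of the sodium pump. Tsc22d3 read 7.93 and 8.20 in vehicle rats and 10.39 and 10.44 in aldosterone rats, and Fxyd4 8.08 and 8.56 against 9.79 and 10.91. Prom1, a protein of membrane protrusions, read 8.90 and 9.79 against 10.54 and 10.14, and Pdlim1, a cytoskeletal adaptor just outside the 200, 9.80 and 9.58 against 10.51 and 10.49. In all of them the groups did not overlap (16.7% of all rows lay higher in this way). Genes that entered were picked on the aldosterone arrays after missing the vehicle choice. Their higher values with aldosterone are therefore largely set by the choice. The others of the 10 largest climbs were Clec2g, Pdzk1ip1, Pck1, Gcnt2, Mep1a and Mknk2. Those that dropped furthest in rank were Atf3, Retsat, Fosb, Edn1, Cx3cl1, Ckb, Ivns1abp, Abcc3, Scpep1 and Junb. Retsat reached rank 388 and Atf3 rank 359. The early response and stress group lost 6 of its 24 genes from the 200 and the metabolic group 4 of its 23.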

How the data were processed

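RNA of surface colonocytes from 4 rats, 1 exon array each, was analysed, with groups taken from the sample titles. The log2 values deposited by the authors, 1 per transcript cluster and array, were used as they are. The tools named, per the submitters' processing notes, are Partek, RMA and Affymetrix Expression Console, without role or version. RMA corrects background and makes probe distributions alike across arrays, so a shift shared by all genes would be hidden. The log2 scale was read from the range of the values. The genome build is not given in the sources used here. The number of arrays limits the precision.

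Of 19403 rows, 13327 had 1 symbol in the platform annotation, 620 several and 5456 none. All rows were fitted with limma 3.58.1 in R 4.3.3 (constant prior, two-sided, Benjamini-Hochberg adjustment, threshold 0.05). The fit was also run on simulated data whose spread followed the level. Those data do not match the constant prior, and their outcome is not given here. Other steps used Python 3.11.15 and pandas 2.3.3. Groups of function were assigned to the 200 genes after their names were known. The 13 functional lists came from general knowledge. Members and lists were chosen with earlier results of these data known. Names were drawn by rule from the first 25 genes, 5 on each side of the limit, the up to 12 per direction with the largest difference without overlap, 10 with the largest gap within a group, up to 6 per list and marker list, called genes, aldosterone targets, and 10 that entered or left. The alternatives were other normalizations, filters, priors, the replicate block, leaving out arrays, and other ways to choose the genes.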

Additional observations from a re-analysis of the deposited data

How the results depend on the processing

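Of the 200 genes, 156 were among the 200 brightest rows when rows without a symbol or with several were ranked too, which take places in the list. Of the 200, 191 remained with either vehicle replicate left out, 191 with all 4 arrays choosing, 178 with the aldosterone arrays choosing, 200 after quantile normalization and 198 with a gene's rows averaged. The median difference over the members, -0.02, became -0.074 with arrays centred on their medians and -0.066 with quantile normalization, and ran from -0.104 to 0.034 with 1 array left out. The counts of 3 higher and 9 lower by 1.5-fold ran from 5 to 6 and from 11 to 18 with 1 array left out. They became 10 higher and 3 lower with the aldosterone arrays choosing, 6 higher with all 4 arrays choosing, 3 lower among the 100 highest genes, and 10 higher and 29 lower among the 400 highest. The counts without overlap, 40 higher and 46 lower, ran from 55 to 81 and from 60 to 100 with 1 array left out, where fewer arrays make overlap less likely. They became 20 higher with centring, 24 and 19 among the 100 highest genes, and 69 and 93 among the 400 highest. Limma called 0 rows, and 0 members, with the constant prior, against 21 rows and 1 member with the intensity trend and 1 row over rows from the median up. The cause of the other moves was not tested.

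The labels number the rats of each group 1 and 2 and do not say that a number is shared. The deviations of same-numbered arrays from their group means correlated at 0.15 over all rows and 0.25 over the members. With the replicate number as a block limma called 0 rows. With 2 rats a group the intervals are wide, and the files carry no detection call that would show which low rows are above background.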
